A study of Homo sapiens with 4 samples.

Results

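The 4 tissue inhibitors of metalloproteinases (TIMP1, TIMP2, TIMP3 and TIMP4) and 6 matrix metalloproteinases (MMP2, MMP11, MMP14, MMP15, MMP16 and MMP24) were followed on oligonucleotide arrays of the human neuroblastoma line SH-SY5Y in which TSPAN8 had been silenced. The 10 genes were listed by name, and every probe set that the platform annotation assigns to 1 of them alone was taken, which gave 29 of the 54613 probe sets tested. The list was drawn up with the difference between knockdown and control already known, TIMP3 being lower at 4 probe sets. For that reason the differences of these genes are given as a description, without a test. The design sets 2 arrays of TSPAN8 knockdown against 2 of transfection control. Knockdown cells received small interfering RNA against TSPAN8 through the Accell delivery system. The line was grown in DMEM/F12 with fetal bovine serum, and cells of both groups were collected after 72 h. The labels do not say what the controls received or whether the 2 samples of a group were separate cultures, so p-values reflect only how these samples vary, which may be technical variation. TSPAN8 itself read 6.25 and 6.35 (log2) in knockdown and 7.52 and 7.62 in control cells, a difference of -1.27 ± 0.062 (SE; limma, adjusted p = 0.0026).

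Matrix metalloproteinases are zinc-dependent enzymes that cut collagens, laminins and other components of the extracellular matrix, and also proteins at the cell surface. TIMPs are small secreted proteins that occupy the active site of these enzymes with the amino-terminal part of the molecule. TIMP3 differs from the other TIMPs in that it binds tightly to the matrix and also inhibits ADAM17 and the aggrecan-cleaving ADAMTS enzymes. In the developing nervous system both families take part in remodelling the matrix while cells migrate and axons grow. Most TIMP genes lie inside introns of synapsin genes: the gene table of GRCh38.p14 places TIMP1 within SYN1, TIMP3 within SYN3 and TIMP4 within SYN2.

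The sequences just before the starts of 3 TIMP genes are shown because TIMP3 was the only TIMP gene whose groups were apart at every probe set, and they show what letters precede it. They are RefSeq promoter windows of GRCh38.p14, matched by symbol for 7 of the 10 genes, each 250 bases that end at the base before the annotated start. Capitals mark the GC box GGGCGG on either strand, a site type that Sp1-family factors can bind.
TIMP3: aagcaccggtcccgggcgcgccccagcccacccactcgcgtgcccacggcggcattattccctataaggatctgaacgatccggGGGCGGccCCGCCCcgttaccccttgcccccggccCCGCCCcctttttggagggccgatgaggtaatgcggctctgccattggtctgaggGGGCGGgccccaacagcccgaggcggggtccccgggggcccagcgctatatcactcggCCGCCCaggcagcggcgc
TIMP1: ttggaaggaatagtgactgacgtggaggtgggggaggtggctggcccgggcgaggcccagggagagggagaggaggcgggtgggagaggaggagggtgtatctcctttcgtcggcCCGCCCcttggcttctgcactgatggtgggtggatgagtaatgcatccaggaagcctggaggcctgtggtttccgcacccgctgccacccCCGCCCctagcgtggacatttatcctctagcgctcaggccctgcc
TIMP4: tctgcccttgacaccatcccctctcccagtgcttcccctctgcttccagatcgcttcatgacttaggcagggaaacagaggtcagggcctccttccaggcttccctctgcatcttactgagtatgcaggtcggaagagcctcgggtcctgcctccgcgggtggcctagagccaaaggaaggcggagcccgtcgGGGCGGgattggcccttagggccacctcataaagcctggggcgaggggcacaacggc
The TIMP3 window lies at chr22:32801455-32801704 on the plus strand, the TIMP1 window at chrX:47582186-47582435 on the plus strand and the TIMP4 window at chr3:12158913-12159162 on the minus strand. The TIMP3 window held 5 GC boxes, that of TIMP1 held 2 and that of TIMP4 held 1. Of 27305 windows of the same length, 42.3% held at least 1, and the share with as many as 5 was not counted. All windows held a median of 11 CG dinucleotides, with 12 in TIMP1, 11 in TIMP4, 31 in MMP15, 25 in MMP24, 22 in MMP11 and 7 in MMP14. The TIMP3 window held 26, and 80.8% of all windows held fewer. It held 1 CCAAT box (CCAAT on either strand, in 33.0% of all windows), as did TIMP4, and no TATAAA (11.1% of all windows) or TGANTCA (6.6%), the letters of the TATA and AP-1 motifs, both searched on either strand. Among the metalloproteinases, MMP15 held 5 GC boxes, MMP11 and MMP24 held 3 each and MMP14 held 1. A match is a string of letters and not a measured site.

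TIMP3 gave lower signals in knockdown than in control cells at each of its 4 probe sets, by 0.17 to 0.39 on the log2 scale. This leaves 76.4% to 88.7% of the control signal, any background included. At probe set 201150_s_at, which had the highest signal of the 4, the log2 values were 8.32 and 8.40 for knockdown replicates 1 and 2 and 8.80 and 8.69 for control replicates 1 and 2. Both knockdown arrays were below both control arrays, and the difference was -0.39 ± 0.061 (SE, n = 2 per group). At 201149_s_at the log2 values were 7.40 and 7.31 in knockdown and 7.68 and 7.50 in control cells, a difference of -0.24 ± 0.073 (SE). Control replicate 1 was the highest array here, and control replicate 2 lay closer to the knockdown arrays than to it. At 201148_s_at the log2 values were 7.93 and 7.87 in knockdown and 8.18 and 8.04 in control cells, a difference of -0.21 ± 0.063 (SE). At 201147_s_at they were 7.25 and 7.27 against 7.50 and 7.36, a difference of -0.17 ± 0.062 (SE). The groups stayed apart at both, and in each case control replicate 1 was again the highest.

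The probe sets of TIMP3 read 1 gene on the same 4 arrays and are not replicates of each other. Across them the 2 control arrays differed by up to 0.19, while the lowest control value exceeded the highest knockdown value by 0.094 to 0.29. The mean over the 4 probe sets, taken from the control mean, was -0.25 for replicate 1 and -0.26 for replicate 2 of the knockdown, beside 0.071 and -0.071 on the control arrays. The knockdown arrays were therefore closer to each other than the control arrays were. The mean difference was -0.25, and it was -0.18 without control replicate 1 and -0.32 without control replicate 2. The highest-signal probe set alone gave -0.39, and the median over the probe sets was -0.22. All 4 probe sets carry the suffix _s_at, which marks probes that can match more than 1 transcript. In bulk samples, fewer cells that make a transcript and less of it per cell cannot be told apart.

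**Figure D1:**
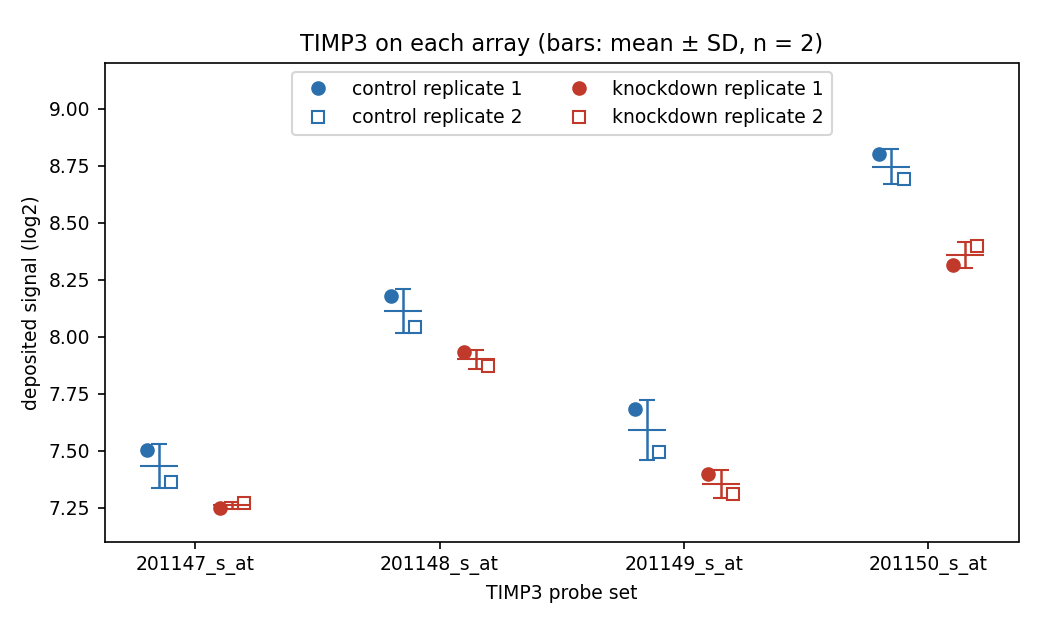
Log2 signal (vertical axis) of the 4 TIMP3 probe sets (horizontal axis) on each array, control in blue and knockdown in red, with replicate 1 as filled circles, replicate 2 as open squares, and bars for the mean ± SD of 2 arrays. At each probe set both knockdown arrays lie below both control arrays, and 201150_s_at shows the widest gap, 8.32 and 8.40 against 8.80 and 8.69.

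Of the 29 probe sets, 4 had both knockdown arrays below both control arrays, all of them of TIMP3, where 19.8% of all probe sets did so, and 4 had both above, where 17.7% of all did so. None of the 29 passed in the fit over all probe sets (limma, adjusted p under 0.05), as against 0.00183% of all, which is TSPAN8 alone. At an unadjusted p under 0.05 there were 4 lower (4.12% of all) and 1 higher (3.72% of all), namely the TIMP3 probe sets and 1 of MMP16. Since the list was drawn up on this contrast, nothing is read from these shares. Among genes with at least 4 probe sets, every probe set was below control without overlap for 9 of 2728 (0.33%), TIMP3 being among them. The list was drawn up with TIMP3 known to be lower at its 4 probe sets, so nothing is read from its place there. The median difference was 0.0068 over the 29 probe sets and 0.0092 over the 25 of the other 9 genes, beside 0 over all probe sets. Within the central 95% of all differences, from -0.16 to 0.16, lay 23 of the 29. Outside that range were the TIMP3 probe sets, TIMP1 and 1 probe set of MMP16.

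**Figure D2:**
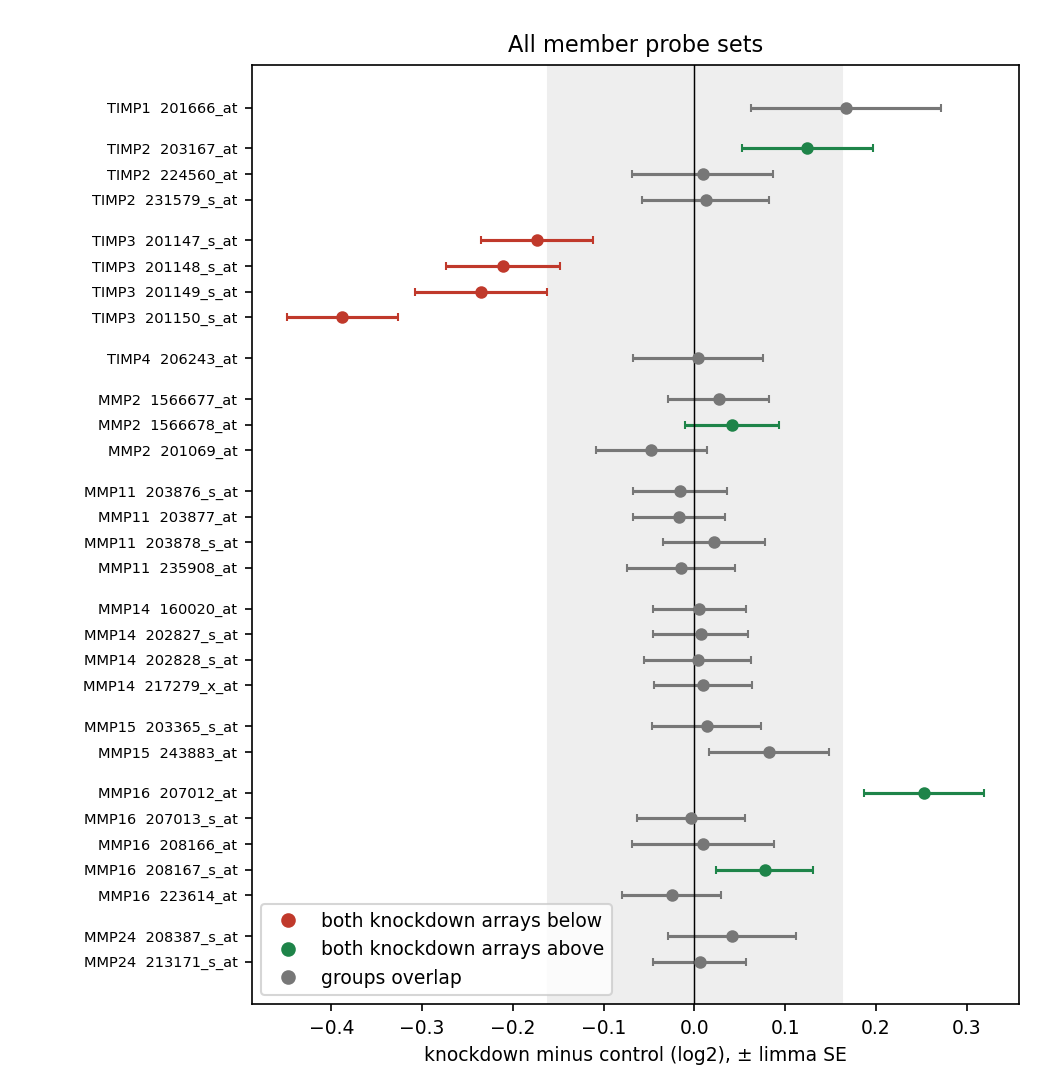
Knockdown minus control (horizontal axis, log2, bars ± limma SE) for the 29 probe sets, grouped by gene, with red for both knockdown arrays below control, green for both above and grey for overlap, and a grey band from -0.16 to 0.16 for the central 95% of all probe sets. The TIMP3 probe sets lie at -0.17 to -0.39, and the other 25 lie between -0.048 and 0.25.

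TIMP1, which encodes a soluble inhibitor of most secreted metalloproteinases, did not share the direction of TIMP3. Its single probe set read 8.50 and 8.15 (log2) in knockdown and 8.12 and 8.20 in control cells. Knockdown replicate 1 was high and the other 3 arrays were close together, so the groups overlapped. The difference of 0.17 ± 0.10 (SE) rested on that array and was -0.011 without it.

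TIMP2, an inhibitor that also helps to bring the MMP2 precursor to MMP14 for activation, differed little. At 231579_s_at, its highest-signal probe set, the log2 values were 12.41 and 12.22 in knockdown and 12.32 and 12.28 in control cells, a difference of 0.013 ± 0.070 (SE). At 224560_at they were 11.53 and 11.30 against 11.43 and 11.39, a difference of 0.0092 ± 0.078 (SE). Knockdown replicate 1 was the highest and knockdown replicate 2 the lowest array at both. At 203167_at the log2 values were 8.55 and 8.35 against 8.35 and 8.31, a difference of 0.12 ± 0.072 (SE), with knockdown replicate 2 barely above control replicate 1. The mean over the 3 probe sets was 0.049, and -0.054 without knockdown replicate 1. TIMP4, a TIMP of restricted tissue distribution, had log2 values of 5.97 and 5.98 in knockdown and 6.07 and 5.87 in control cells, with both knockdown values between the control values. Its probe set ranked at percentiles 13.4 to 24.6 of all probe sets on the 4 arrays, where a change of the transcript would be compressed.

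MMP2, or gelatinase A, the secreted enzyme that digests type IV collagen, was dim at 2 of its 3 probe sets. At the third, 201069_at, the log2 values were 10.15 and 10.13 in knockdown and 10.25 and 10.12 in control cells, a difference of -0.048 ± 0.061 (SE). Control replicate 1 was the highest array, as for TIMP3, and the other 3 lay together. At 1566678_at the log2 values were 6.36 and 6.41 against 6.34 and 6.35, apart by group but by only 0.041 ± 0.052 (SE), and at 1566677_at the groups overlapped with a difference of 0.027. MMP11, or stromelysin-3, which is secreted in active form after cleavage inside the cell, differed by -0.017 to 0.021 over its 4 probe sets, and the groups overlapped at each.

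MMP14, MMP15, MMP16 and MMP24 are membrane-type enzymes, anchored at the cell surface. MMP14, the best-known activator of the MMP2 precursor, differed by 0.0035 to 0.0092 over 4 probe sets. They ranked at percentiles 31.1 to 58.2 of all probe sets, where a change of the transcript may be compressed. At 160020_at, the MMP14 probe set with the highest signal, the log2 values were 6.85 and 6.82 in knockdown and 6.85 and 6.82 in control cells. The groups overlapped at each of the 4, and the mean of 0.0063 turned to -0.0071 after a second quantile normalization and -0.0075 after median centring. MMP15 differed by 0.013 ± 0.060 (SE) at 203365_s_at and by 0.082 ± 0.066 (SE) at 243883_at, and MMP24 by 0.0057 ± 0.051 (SE) at 213171_s_at and 0.041 ± 0.071 (SE) at 208387_s_at. The groups overlapped at all of these.

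MMP16, a membrane-type enzyme expressed in the nervous system, was the member whose probe sets disagreed most. At 207012_at the log2 values were 8.35 and 8.19 in knockdown and 8.03 and 8.00 in control cells. Both knockdown arrays were higher, by 0.25 ± 0.066 (SE). At 223614_at, the probe set with the highest signal, the values were 10.24 and 10.24 against 10.31 and 10.23, a difference of -0.025 ± 0.055 (SE) with overlap. The remaining probe sets differed by 0.078 at 208167_s_at, where the groups were apart, and by 0.0096 at 208166_at and -0.0036 at 207013_s_at, where they overlapped. The mean over the 5 was 0.062, and it was 0.0053 without knockdown replicate 1. Which transcripts each probe set reads was not examined here.

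Of the 29 probe sets, 19 had a mean signal above the median of all probe sets, and 9 of the 10 genes had at least 1 such probe set, TIMP4 being the exception. All probe sets of TIMP1, TIMP2 and TIMP3 were above it, as were 3 of 4 of MMP14, 3 of 5 of MMP16, 2 of 4 of MMP11, and 1 each for MMP2, MMP15 and MMP24. At the 10 below the median, a change of the transcript may be compressed. Signals of different probe sets are not set against each other, because probes bind with different strength.

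No marker of cell state passed over all probe sets (limma, adjusted p under 0.05; 0.00506% of all genes passed), so their values are given beside those of the members as levels. SH-SY5Y cells are noradrenergic neuroblasts, and among the control arrays GATA3, ISL1 and STMN2 ranked above percentile 99.3. HAND1 ranked at percentiles 82.3 to 82.9, HAND2 at 71.2 to 71.6 and TH, the first enzyme of catecholamine synthesis, at 16.2 and 20.5. Of the mesenchymal markers, VIM and TWIST1 also ranked above percentile 99.3 there, while CCN2 ranked at 2.1 to 7.3. Of 11 measured noradrenergic markers, 9 had a difference below 0 (55.6% of all genes did) and 5 lay below control without overlap (24.2% of all genes), with a median of -0.059. TH went the other way and was the 1 marker above control without overlap (14.3% of all genes), at 0.12 ± 0.058 (SE). At an unadjusted p under 0.05 (limma) 4 of the 11 were lower, namely CHGA, CHGB, HAND1 and DBH (5.57% of all genes), and 0 higher. Their mean log2 level was 10.69 and 10.76 in knockdown cells and 10.83 on each control array. DBH, which makes noradrenaline, was at 11.66 and 12.02 in knockdown and 12.19 and 12.18 in control cells, while its second probe set differed by 0.037. Of 14 mesenchymal and fibroblast markers, 13 were above control in mean (8787 of all 19775 genes were) and 8 were so without overlap (14.3% of all genes). At an unadjusted p under 0.05 (limma) 3 of the 14 were higher, namely COL3A1, CCN1 and SPARC (2.39% of all genes), and 0 lower. Their mean log2 level was 9.39 and 9.11 on knockdown replicates 1 and 2 and 9.07 and 9.01 on control replicates 1 and 2. The proteoglycan gene DCN was at 10.06 and 9.19 in knockdown and 9.17 and 9.09 in control cells, LUM at 11.76 and 11.31 against 11.40 and 11.12, COL3A1 at 9.46 and 9.02 against 8.82 and 8.77, COL1A1 at 9.72 and 9.39 against 9.46 and 9.22, and COL1A2 at 6.60 and 6.47 against 6.45 and 6.33. Knockdown replicate 1 was the highest array for all 5 of these, as it was for TIMP1, for the TIMP2 probe sets and for MMP16 at 207012_at, whereas TIMP3 was about as low on both knockdown arrays. The part of these markers in the TIMP and MMP values was not tested. Of the 4 Schwann cell, 5 endothelial and 4 leukocyte markers measured, 0 were lower or higher at an unadjusted p under 0.05 (limma), and the list medians were 0.030, -0.015 and 0.00053. Without overlap, S100B (0.071), FOXD3 (0.056), CDH5 (0.048) and AIF1 (0.12) were above control and CLDN5 (-0.036) was below. The defining markers SOX10, PECAM1 and PTPRC overlapped, at -0.0073, -0.024 and -0.016.

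**Figure D3:**
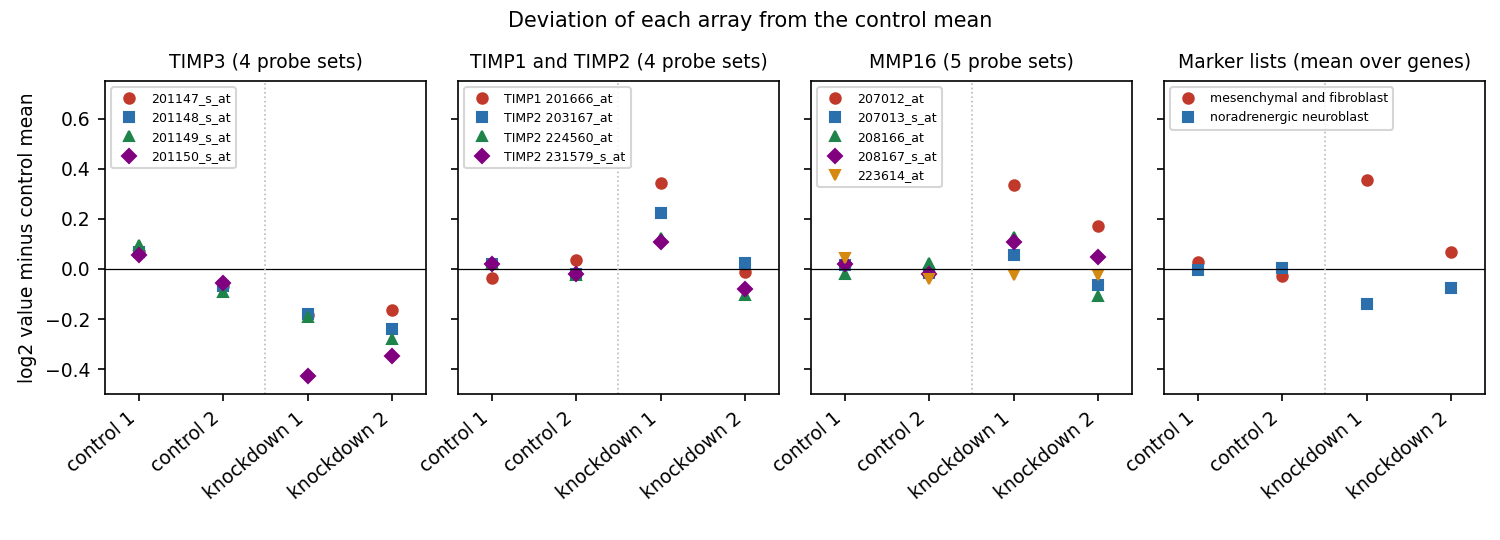
Log2 value minus the control mean (vertical axis) on each of the 4 arrays (horizontal axis) for the probe sets of TIMP3, of TIMP1 and TIMP2, and of MMP16, and for the mean of 2 marker lists. TIMP3 is low on both knockdown arrays, with means of -0.25 and -0.26, while the mesenchymal list is at 0.35 and 0.068.

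The rest of the metalloproteinase network was read from 10 lists with 92 measured genes, each at its highest-signal probe set. None passed over all probe sets (limma, adjusted p under 0.05; 0.00506% of all genes passed). At an unadjusted p under 0.05 there were 3 higher and 2 lower, where 2.39% and 5.57% of all genes were so, and the median was 0.027 beside -0.0094 over all genes. The 2 lower genes were SPOCK1 and ADAMTS9, and the 3 higher were TFPI2, PLAT and AGTR2.

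Other inhibitors of metalloproteinases held the widest differences after ADAMTS3. SPOCK1, a testican proteoglycan of the matrix, stood at log2 values of 10.15 and 10.22 in knockdown and 10.56 and 10.40 in control cells. Its difference of -0.30 ± 0.067 (SE) did not pass (limma, adjusted p = 0.58), and like TIMP3 it was low on both knockdown arrays and highest on control replicate 1. TFPI2, a Kunitz-type inhibitor deposited in the matrix, stood at 12.88 and 12.59 against 12.50 and 12.45, a difference of 0.26 ± 0.090 (SE; limma, adjusted p = 0.61), which was 0.12 without knockdown replicate 1, and its second probe set differed by 0.30. The 9 measured genes of this list had a median of -0.026, with 0 past the threshold in either direction. The list also holds PCOLCE, PCOLCE2 and CST3, so its median is not that of metalloproteinase inhibitors alone.

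Among 14 other secreted metalloproteinases 0 passed in either direction, and the differences ran from -0.072 to 0.059, at MMP10 and MMP8. These were dim, MMP10 at percentiles 7.3 to 13.2 of all probe sets and MMP8 at 13.0 to 16.8. Apart from MMP9, MMP19 and MMP28, none of this list ranked above percentile 28.9. A change of a transcript would be compressed at such signals. The membrane-bound MMP25 and MMP17 differed by 0.089 and 0.052. Of 9 ADAM proteases, which shed proteins from the cell surface and include the TIMP3 target ADAM17, 0 passed and the median was -0.0043. ADAM12 was at 0.15 ± 0.083 (SE) with overlapping groups, and at 0.039 without knockdown replicate 1, though all 5 of its probe sets had a mean above control. ADAM19 was at 0.078, also with overlap. Of 18 ADAMTS proteases 0 passed. ADAMTS9 stood at log2 values of 11.42 and 11.41 in knockdown and 11.61 and 11.55 in control cells, a difference of -0.17 ± 0.052 (SE; limma, adjusted p = 0.60), but 2 of its 4 probe sets were above control. ADAMTS19 was at -0.12 at both of its probe sets. ADAMTS3, named after its values were seen, had log2 values of 9.52 and 8.97 against 9.01 and 8.84, with knockdown replicate 1 far above the rest and the groups overlapping.

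Among the activators, PLAT, the tissue plasminogen activator, stood at 7.27 and 7.25 in knockdown and 7.03 and 7.17 in control cells, a difference of 0.16 ± 0.061 (SE; limma, adjusted p = 0.62), and the proprotein convertase PCSK5 was at 0.13. Without control replicate 1 they were at 0.091 and 0.077, and the probe set of PCSK5 was dim, at percentiles 7.1 to 16.1 of all probe sets. Among proteins that bind TIMPs or take them up, AGTR2, an angiotensin receptor, was at 0.13 ± 0.056 (SE; limma, adjusted p = 0.63). The probe set read for AGTR2 was dim, at percentiles 21.3 to 31.3 of all probe sets, and 1 of its 3 probe sets was below control. BSG, an inducer of metalloproteinases that was placed in the same list, was at -0.097. Of 14 matrix substrates 0 passed, with a median of 0.030, COL4A2 at 0.16 (0.042 without control replicate 2) and NID1 at 0.11 (0.039 without knockdown replicate 1). Growth factors that ADAM17 releases differed by -0.040 to 0.028, at TNF and TGFA, when each was read at its highest-signal probe set. Both of these were dim, TNF at percentiles 20.1 to 23.8 of all probe sets and TGFA at 30.9 to 34.2. Other probe sets of this list reached 0.17 for HBEGF and -0.12 for BTC. SYN3, which spans TIMP3, had log2 values of 6.50 and 6.50 in knockdown and 6.47 and 6.52 in control cells at its single probe set, a difference of 0.0040 ± 0.052 (SE) whose sign turned when arrays were centred or normalized again. SYN2, which spans TIMP4, was at -0.14 ± 0.060 (SE; limma, adjusted p = 0.64) with 4 of 5 probe sets below control, and SYN1, which spans TIMP1, at 0.058.

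**Figure D4:**
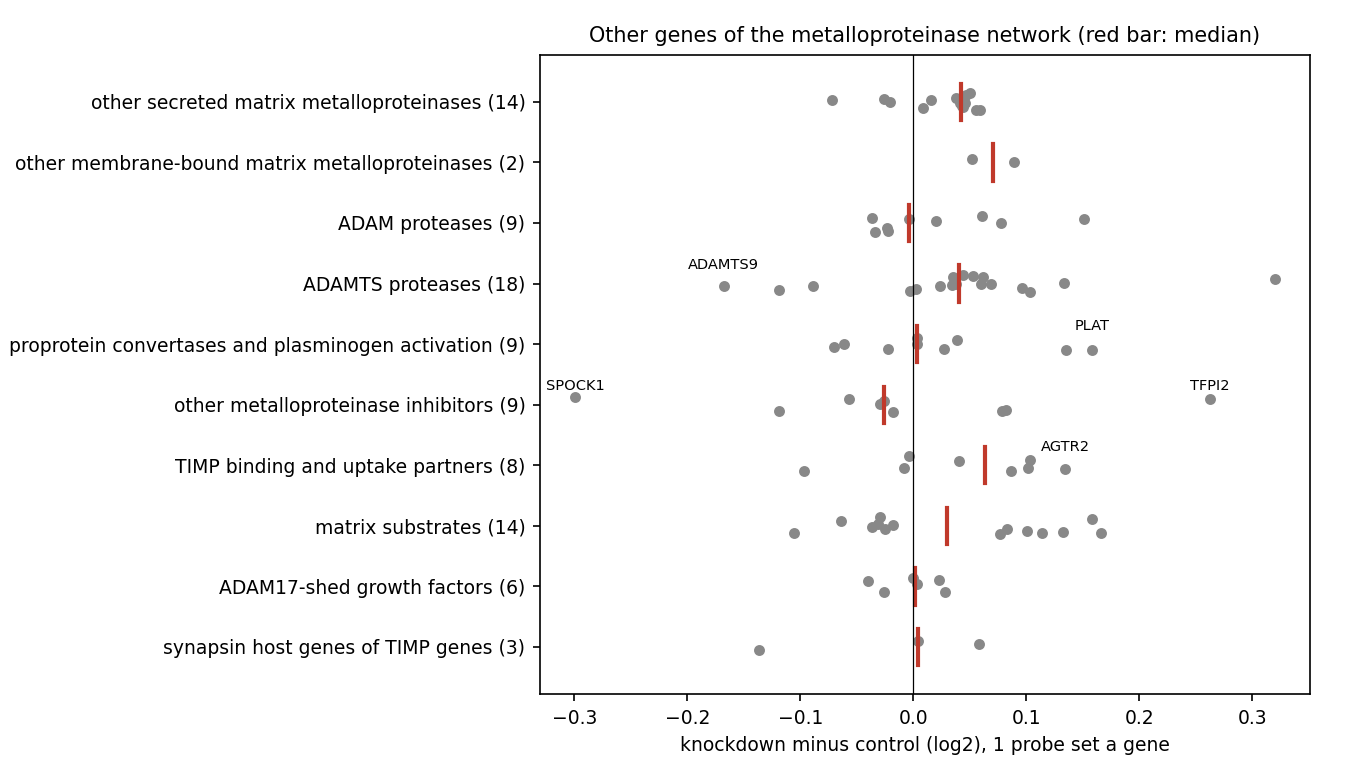
Knockdown minus control (horizontal axis, log2) for each gene of 10 lists (rows, number measured in parentheses), with a red bar at the list median and names for the 5 genes at an unadjusted p under 0.05. SPOCK1 at -0.30 and TFPI2 at 0.26 stand at opposite ends of the list of other inhibitors.

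The genes most like TIMP3 over the 4 arrays were sought by the root mean square difference between log2 values taken from the control mean, among 19774 other genes at their highest-signal probe set. The 5 nearest were CMTM4, PDE5A, FLRT3, SNX17 and FGD4, at 0.020 to 0.022, where the median gene was at 0.18. PDE5A, a phosphodiesterase that degrades cyclic GMP, was at -0.23, the adhesion molecule gene FLRT3 at -0.26 and the sorting nexin gene SNX17 at -0.23. Both probe sets of FLRT3 and all 3 of FGD4 were below control, against 6 of 8 for PDE5A and 1 of 3 for CMTM4. With 4 arrays and a contrast that chose TIMP3, this likeness is a description.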

How the data were processed

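Total RNA of 4 samples was hybridised to 1 array each. The deposited values are log2 signals per probe set, made by the authors with RMA and R 3.0.1 per the submitters' processing notes, settings and genome build not given in the sources used here. RMA compresses changes near background, and neither detection calls nor scan dates were used here. Of 54675 probe sets, 62 controls were left out. Genes come from the platform annotation (41091 probe sets with 1 gene).

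The 2 groups were compared with limma 3.58.1 (R 4.3.3; lmFit, eBayes, no covariates, two-sided), with Benjamini-Hochberg adjustment over 54613 probe sets and a threshold of 0.05. The fit was also run on data simulated from its own variance model with independent errors. That run checks the code and cannot show how the fit handles a deviating array. Differences are knockdown minus control with limma's SE. A gene outside the members was read at its highest-signal probe set. Named genes were all members, TSPAN8, the synapsin genes, the 2 smallest p of each network list, the 5 genes nearest TIMP3 and, of the marker lists, COL1A1, COL1A2, COL3A1, DCN, LUM, DBH, SOX10, PECAM1 and PTPRC; other markers and ADAMTS3, TNC and VCAN were named after their values were seen. The members and lists were chosen with earlier results of these data known. Alternatives were a second quantile normalization, median centring, filters on dim or multi-transcript probe sets, other variance models, a block for the replicate number, array weights, other summaries per gene and leaving out each array. Figures used Python 3.11.15 and matplotlib 3.10.9. The number of arrays limits the precision.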

Additional observations from a re-analysis of the deposited data

How the results depend on the processing

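TIMP3 stayed below control under every alternative run that kept its probe sets, but most of these could not have turned the sign. Signal filters, variance models, array weights and the block leave its mean difference of -0.25 unchanged. With the groups apart at each TIMP3 probe set, leaving out 1 array could not turn it either. That mean ran from -0.32 to -0.18 with 1 array left out and was -0.39 at the highest-signal probe set alone. The mean was -0.24 after a second quantile normalization and -0.27 after median centring. Leaving out probe sets that can bind several transcripts removes all of TIMP3, and the count of member probe sets below control without overlap was then 0 instead of 4. With 1 array left out that count ran from 6 to 12, and the share over all probe sets rose with it, from 19.8% to between 33.2% and 36.9%, because fewer arrays have to be apart. Renormalizing or centring added 1 probe set of MMP11. The number of probe sets past the threshold was 0 with the replicate number as a block (TSPAN8 at -1.27, limma, adjusted p = 0.16), a fit with fewer residual degrees of freedom. It ran from 1 to 1026 with 1 array left out, at 25 without knockdown replicate 1 and 1026 without knockdown replicate 2, where the array that remains alone is taken to vary as the control arrays do. Network genes past the threshold ran from 0 to 5. The 5, without knockdown replicate 2, were ADAMTS3 (0.59), TNC (0.41), TFPI2 (0.41), VCAN (0.34) and SPOCK1 (-0.33). That fit left knockdown replicate 1 alone in its group. Its log2 values minus those of replicate 2 were 0.54 for ADAMTS3, 0.62 for TNC, 0.29 for TFPI2, 0.34 for VCAN and -0.062 for SPOCK1. No share over all genes is given for that fit, so nothing is read from the count. Deviations of knockdown replicate 1 and control replicate 1 from their group means correlated at 0.051 across all probe sets. Across the member probe sets the correlation was -0.29. With 2 arrays a group, replicate 2 mirrors replicate 1, so it adds no further comparison. No label pairs the replicate numbers. SYN3 was at -0.0077 after a second quantile normalization and -0.0098 after median centring, and ran from -0.021 to 0.029 with 1 array left out. ADAM19 ran from -0.0053 to 0.16 and MMP17 from -0.0047 to 0.11. For the remaining shifts the cause was not tested.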
